A study of Mus musculus with 12 samples.

Results

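The 9 monocyte chemokines and receptors described here are the secreted ligands Ccl2, Ccl6, Ccl7, Ccl8, Ccl9 and Ccl12 and the receptors Ccr2, Cx3cr1 and Cxcr6. They were found by gene symbol in the annotation of an Affymetrix expression array, on which they make up 9 of 18194 named genes. Each was read from its brightest probe set (the group of short probes that reports a transcript), and all 9 were bright enough to be tested. Their levels were measured in total RNA of the left ventricle of Balb/c mice aged 6 to 8 weeks. The procedures were transverse aortic constriction (TAC), which loads the left ventricle by narrowing the aorta, at 1 day, 1 week and 1 month, and closure of a coronary artery (myocardial infarction, MI) at 1 week and 1 month. A further group received angiotensin II (Ang II), a peptide hormone that raises blood pressure, by infusion at 2 mg/kg/day for 1 week. The controls were TAC shams at 1 day, 1 week and 1 month, which had the operation without the constriction, MI shams at 1 week and 1 month, whose chest was opened without coronary ligation, and a saline-infused control of Ang II at 1 week. No genetic change was named for any group. Each of the 12 groups was 1 array, and the sources used here do not say whether an array held RNA of 1 mouse or of a pool. P-values therefore measure the spread between 6 procedure-control pairs. That spread holds differences between procedures and times, and part of it may be technical. Where TAC and MI were fitted separately, the different times of a procedure stood as its repeats.

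Chemokines are small secreted proteins that bind receptors on leukocytes and guide their migration. Ccr2 is carried by classical monocytes, whose release from bone marrow and entry into injured tissue it drives, and in the mouse its ligands include Ccl2, Ccl7 and Ccl12. Ccl6 and Ccl9 are made by myeloid cells and signal through Ccr1. Cx3cr1 is the receptor of the membrane-bound chemokine Cx3cl1 and marks patrolling monocytes and many tissue macrophages, and Cxcr6 binds Cxcl16 and is found on T, NKT and NK cells. In the injured heart monocytes that enter through Ccr2 are known to supply macrophages for clearance and scar formation.

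In the RefSeq gene table (GRCm38.p6) Ccl2, Ccl7, Ccl12 and Ccl8 lie on chromosome 11 in this order, with Ccl11 between Ccl7 and Ccl12. Ccl9 and Ccl6 are direct coding neighbours further along the same chromosome, and the 3 receptors lie on chromosome 9. The RefSeq promoter table held 7 of the 9 genes and not Ccl2 or Ccl7. The promoters of Ccl12 and Ccl8 are shown because these neighbours differed in their response, and those of Ccl9 and Ccl6 because theirs were the most alike of any pair among the 9. Each runs from 250 bases before to 50 bases after the transcription start, 5′ to 3′ on the gene's strand, and capitals mark matches on either strand to the motifs named after them. The positions are chr11:82101595-82101894 (plus strand) for Ccl12, chr11:82114935-82115234 (plus) for Ccl8, chr11:83578587-83578886 (minus) for Ccl9 and chr11:83593038-83593337 (minus) for Ccl6.
Ccl12: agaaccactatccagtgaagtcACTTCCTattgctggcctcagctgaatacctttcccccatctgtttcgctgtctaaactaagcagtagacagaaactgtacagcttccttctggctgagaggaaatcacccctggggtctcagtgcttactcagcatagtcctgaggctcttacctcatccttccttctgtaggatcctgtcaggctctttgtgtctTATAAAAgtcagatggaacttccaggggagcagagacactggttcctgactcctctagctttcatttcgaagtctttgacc
Ccl8: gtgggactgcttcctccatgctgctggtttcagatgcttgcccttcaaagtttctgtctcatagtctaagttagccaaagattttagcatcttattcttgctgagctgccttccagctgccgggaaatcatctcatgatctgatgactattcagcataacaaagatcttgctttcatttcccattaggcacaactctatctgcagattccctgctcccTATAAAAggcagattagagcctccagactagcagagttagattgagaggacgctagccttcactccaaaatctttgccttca
Ccl9: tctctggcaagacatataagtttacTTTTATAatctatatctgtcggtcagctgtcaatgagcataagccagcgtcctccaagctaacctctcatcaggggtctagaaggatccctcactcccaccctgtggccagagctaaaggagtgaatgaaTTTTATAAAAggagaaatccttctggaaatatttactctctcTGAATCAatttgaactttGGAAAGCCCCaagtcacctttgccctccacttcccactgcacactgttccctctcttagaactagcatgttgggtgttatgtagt
Ccl6: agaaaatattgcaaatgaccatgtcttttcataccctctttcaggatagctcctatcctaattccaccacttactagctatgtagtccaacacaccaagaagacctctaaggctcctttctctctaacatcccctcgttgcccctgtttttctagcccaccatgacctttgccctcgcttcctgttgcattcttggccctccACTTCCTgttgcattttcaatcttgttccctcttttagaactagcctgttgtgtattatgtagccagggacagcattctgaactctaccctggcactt

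In these 7 promoters 5 motifs were searched on both strands, and the share of the 32851 promoters in the table that hold each is given beside it. The TATA box was read as TATAAAA (5.48% of promoters). For AP-1 the letters were TGANTCA (7.81%), where N is any base. The kappa B motif was a G triplet, 2 free bases and then TTTCC (1.63%). The C/EBP motif was TTGCNNAA and was held by 10.8% of promoters, and the PU.1 motif was AGGAAGT, held by 9.35%. TATAAAA stood 31 bases before the start of Ccl12 and 32 before that of Ccl8. Ccl9 held it at 92 bases before the start, overlapped by a match on the other strand, and once more at 225 bases. The promoter of Ccl9 also held the AP-1 letters at 53 and the kappa B letters at 35 bases before the start. AGGAAGT was found on the other strand of Ccl6 at 48 and of Ccl12 at 228 bases before the start. The C/EBP letters were in none of the 7 windows, and the promoters of Ccr2, Cx3cr1 and Cxcr6 held none of the 5 motifs. These matches describe letters in the windows and are not binding sites shown by data.

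Before comparison each array was multiplied by a factor of 0.872 to 1.09 that gave all the same trimmed mean, and values are scaled signals on a linear scale or log2 ratios of a procedure array to its own control. None of the 108 signals of the 9 genes was at the floor of 4.54 that was set for low signals, and 18 were under the median signal of all arrays, 25.9. The 8 cardiomyocyte markers checked (among them Myh6, Tnnt2 and Ryr2) had summed signals of 73200 to 90000 in procedure and 86000 to 94000 in control arrays. Control arrays differed in these chemokines themselves. Their summed signal over the 9 genes was 385 in the Ang II control, 586 in the TAC sham at 1 day, 620 in the MI sham at 1 month and 769 to 1100 in the other 3. The 5′ to 3′ signal ratios of the control transcripts dap (0.377 to 0.493) and thr (0.361 to 0.621) were highest on the TAC 1 day array, its sham and the Ang II arrays, against 0.195 to 0.333 and 0.175 to 0.28 on the others. Their part in the levels was not tested.

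**Figure D1:**
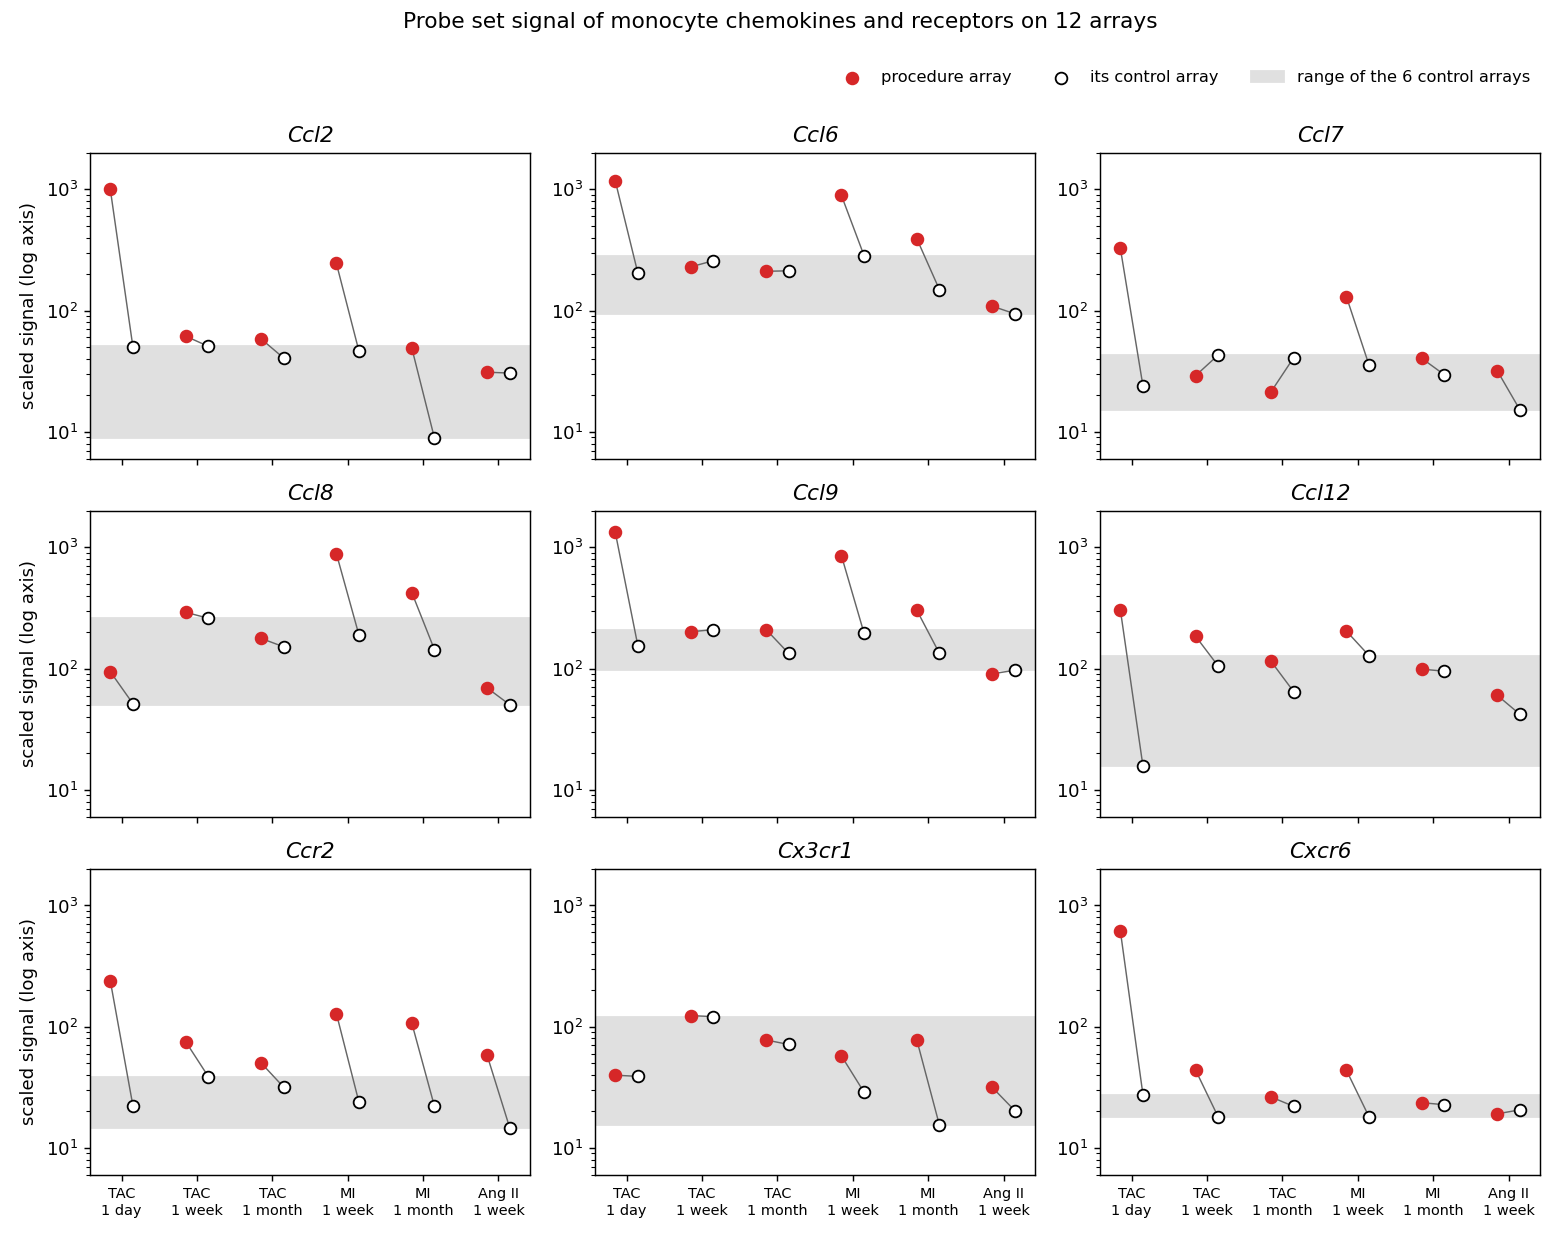
Scaled signal (log axis) of each of the 9 genes on the 12 arrays; filled points are procedure arrays, open points their controls, joined in pairs, and the grey band is the range of the 6 controls. All 6 procedure arrays lie above the band for Ccr2, whereas for Cx3cr1 the band runs from 15.4 to 121 and holds 5 of 6.

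The first question was which of these genes were higher after cardiac stress in the mean of the 6 pairs. The RNA came from whole tissue, in which more cells of a type and more RNA per cell cannot be told apart. All 9 had a positive mean log2 ratio, and 2 passed the test, Ccr2 and Ccl8. Ccr2, the receptor of classical monocytes, rose by 1.96 ± 0.32 (log2, standard error of limma's fit; adjusted p = 0.00995) and was higher in 6 of 6 pairs. Ccl8 rose by 0.92 ± 0.25 (adjusted p = 0.0445) and was also higher in 6 of 6 pairs. With limma's paired fit over 11624 genes and Benjamini-Hochberg adjustment, 5.16% of all genes were called higher. The median of the 9 mean changes was 1.15, against -0.004 for all genes tested, and at an unadjusted p under 0.05 the count was 8 of 9, against 13.4% of all genes. The members were chosen with earlier results of these data known. Comparisons of the 9 with all genes, here and below, are therefore descriptions and not tests. The Ccr2 call held in 16 of 18 alternatives, the Ccl8 call in 6 of 18. With either later TAC pair or either MI pair left out Ccr2 was the member that passed, without the TAC 1 day pair Ccr2 and Ccl12, and without the Ang II pair Ccl2, Ccl8, Ccl9 and Ccr2.

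The members that did not pass had mean log2 ratios of 1.67 ± 0.50 for Ccl2 (adjusted p = 0.0581), 1.15 ± 0.37 for Ccl9 (0.074) and 0.93 ± 0.32 for Ccl6 (0.0883). Ccl12 had 1.20 ± 0.45 (adjusted p = 0.113), Cx3cr1 0.69 ± 0.29 (0.144), Cxcr6 1.21 ± 0.52 (0.157) and Ccl7 0.95 ± 0.52 (0.259), all from limma's fit. Ccl2, Ccl8, Ccl12, Ccr2 and Cx3cr1 were higher in 6 of 6 pairs, as were 8.67% of all genes tested, and Cxcr6 was higher in 5 and Ccl6, Ccl7 and Ccl9 in 4 of 6. With signals as deposited the called members were Ccl2, Ccl6, Ccl8, Ccl9 and Ccr2.

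**Figure D2:**
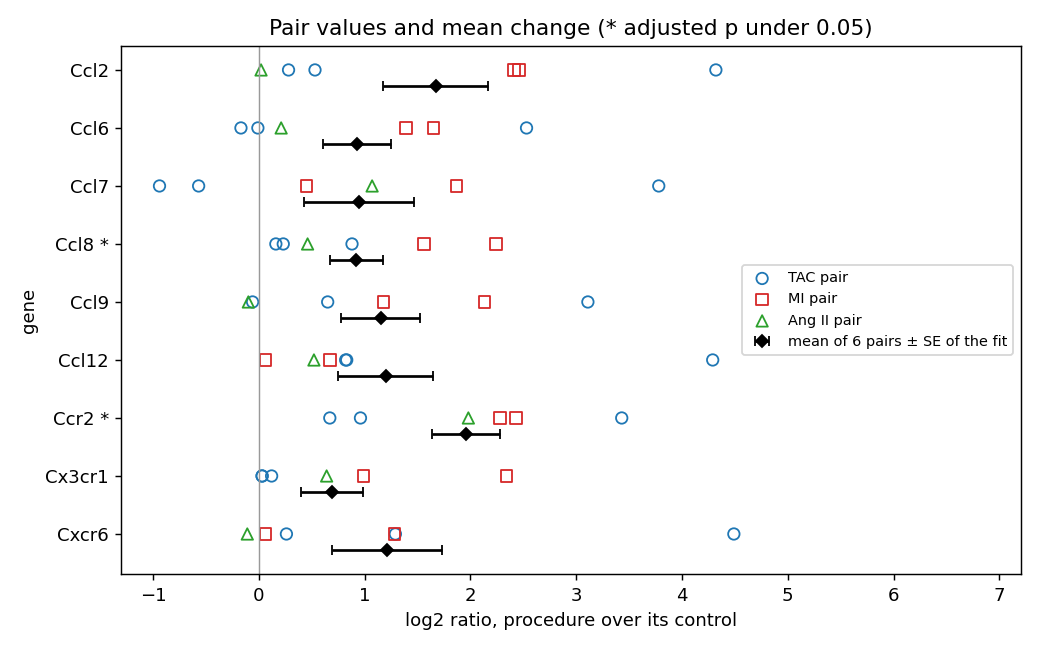
Log2 ratio of each pair (open symbols by model) and the mean of 6 pairs with the standard error of limma's fit (filled diamonds) for the 9 genes; an asterisk marks an adjusted p under 0.05. Ccr2 (1.96) and Ccl8 (0.92) carry the asterisk, and the TAC 1 day value stands farthest right for 7 of the 9 genes.

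Single pairs have no replicate and were not tested. A gene was counted in a pair under 3 conditions (the pair rule): a log2 ratio of 1 or more in either direction, a brighter signal over 25.9, and a procedure signal beyond those of all 6 controls. In TAC 1 day 7 of 9 genes were counted as higher (all genes: 5.7%), in TAC 1 week 1 (2.18%) and in TAC 1 month 0 (1.91%). In MI 1 week the count was 7 (6.01%), in MI 1 month 4 (2.89%) and with Ang II 1 (0.946%). No member was counted as lower in any pair, next to 6.4%, 0.826%, 1.26%, 1.3%, 0.619% and 0.774% of all genes in the order above. Applied from control to control at equal times, these conditions counted 0.576% to 1.87% of all genes, and 0 to 5 of the 9 members. The 5 were found for the TAC sham over the Ang II control at 1 week, so controls differed in these genes by as much as some procedure pairs.

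**Figure D3:**
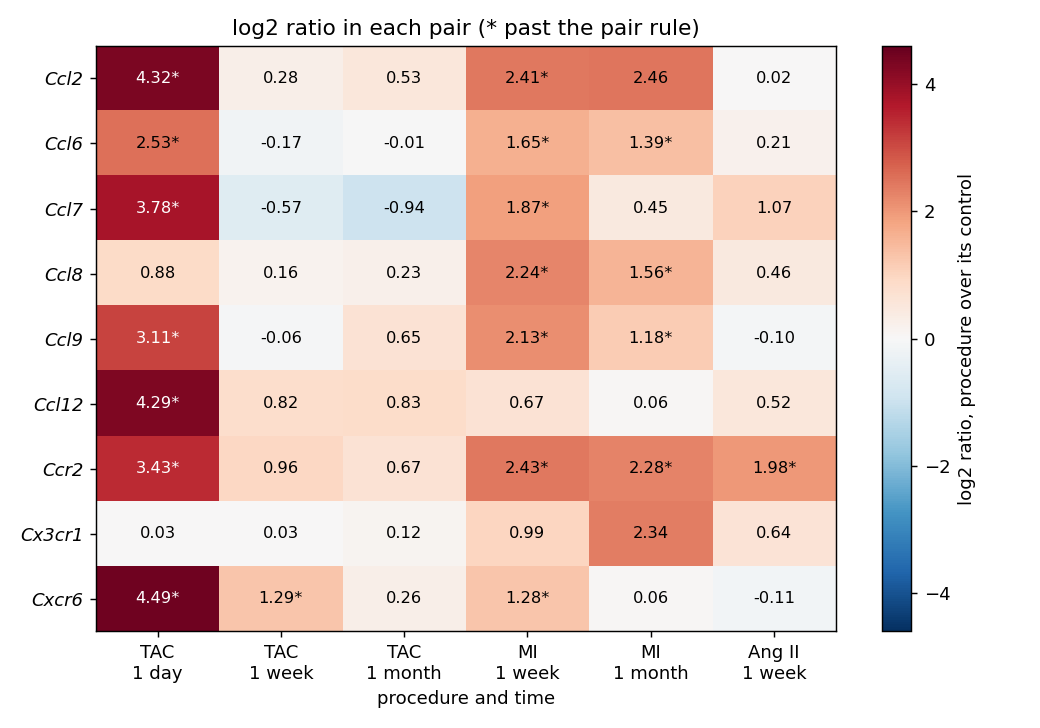
Log2 ratio of procedure to control for the 9 genes (down) in the 6 pairs (across), with an asterisk where the pair rule is met. TAC 1 day and MI 1 week each hold 7 asterisks, TAC 1 month 0 and Ang II only that of Ccr2.

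Among the ligands of Ccr2, Ccl2, the main monocyte attractant, had a signal of 1003 in TAC at 1 day, 61.5 at 1 week and 58.4 at 1 month, against 50.2, 50.7 and 40.6 in the TAC shams of those times. It was 245 in MI at 1 week and 49.1 at 1 month, against 46.0 and 8.9 in the MI shams, and 31.0 with Ang II against 30.5 in its control. The TAC 1 day and MI 1 week arrays stood far above the range of the 6 controls, at 20.0-fold and 5.32-fold of their shams. The ratio of 5.50-fold in MI 1 month rests on the lowest control: the MI 1 month array itself lay inside the control range of 8.9 to 50.7, and its log2 ratio of 2.46 became 0.57 against the mean of all 6 controls and 0.27 against the TAC sham of the same time.

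Ccl7, a further ligand of Ccr2, had a signal of 328 in TAC at 1 day, 29.1 at 1 week and 21.4 at 1 month, against 23.9, 43.1 and 40.9 in the TAC shams. In MI it was 130 at 1 week and 40.3 at 1 month, against 35.4 and 29.5 in the shams, and with Ang II 31.9 against 15.2. Only the TAC 1 day and MI 1 week arrays exceeded the control range of 15.2 to 43.1. In TAC 1 week and 1 month Ccl7 was below its sham (log2 -0.57 and -0.94) while staying inside the control range.

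Ccl12, the mouse chemokine MCP-5, had a signal of 307 in TAC at 1 day, 184 at 1 week and 115 at 1 month, against 15.7, 105 and 64.5 in the TAC shams. After MI its signal was 204 at 1 week and 99 at 1 month, against 128 and 95.2 in the shams, and with Ang II 60.3 against 42. The large ratio of TAC 1 day (log2 4.29) has its sham as the lowest of the 6 controls, and against the mean of all controls it was 2.32. TAC 1 week and MI 1 week also exceeded every control, by less than a log2 ratio of 1 to their own shams.

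Ccl8 had a signal of 94.4 in TAC at 1 day, 292 at 1 week and 178 at 1 month, against 51.4, 261 and 151 in the TAC shams. The MI arrays gave 887 at 1 week and 424 at 1 month, against 188 and 144 in the shams, and with Ang II 69.3 against 50.3. The highest levels were those of the MI arrays, and the levels of the TAC 1 day and Ang II pairs were the lowest on both sides. The 6 controls spanned 50.3 to 261, so the TAC 1 day signal lay within them although above its own sham.

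Ccl6, a myeloid chemokine, had a signal of 1170 in TAC at 1 day, 229 at 1 week and 211 at 1 month, against 203, 258 and 213 in the TAC shams. In MI hearts it was 890 at 1 week and 391 at 1 month, against 284 and 149 in the shams, and with Ang II 109 against 94.1. TAC 1 day and both MI arrays were above every control, while TAC at 1 week and 1 month and Ang II were within the control range. Its neighbour Ccl9 had a signal of 1328 in TAC at 1 day, 201 at 1 week and 210.2 at 1 month, against 154, 209.7 and 134 in the TAC shams. The signal after MI was 855 at 1 week and 303 at 1 month, against 196 and 134 in the shams, and with Ang II 90.5 against 97.0. The log2 ratios of Ccl6 and Ccl9 differed by a root mean square of 0.44 over the 6 pairs, the smallest of 36 pairs of members, whereas those of the neighbours Ccl8 and Ccl12 differed by 1.69. The second probe sets of Ccl6 and Ccl9 gave log2 ratios of 2.8 and 3.17 in TAC 1 day and 1.73 and 2.31 in MI 1 week, next to 2.53 and 3.11 and to 1.65 and 2.13 for the brightest.

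Ccr2 had a signal of 239 in TAC at 1 day, 75.3 at 1 week and 50.3 at 1 month, against 22.3, 38.8 and 31.7 in the TAC shams. MI arrays read 128 at 1 week and 107 at 1 month, against 23.7 and 22.1 in the shams, and with Ang II 57.9 against 14.6. Every procedure array was above every control, whose highest was 38.8, a pattern shared by 1.36% of all genes tested. The MI 1 week and MI 1 month folds were 5.40 and 4.84, the TAC 1 day fold 10.8. Of the 4 probe sets of Ccr2 the next brightest gave log2 ratios of 3.62 for TAC 1 day, 1.54 for MI 1 week, 2.03 for MI 1 month and 0.30 for Ang II. The third gave 0.45 for TAC 1 day, 2.08 for MI 1 week, 0.04 for MI 1 month and -0.49 for Ang II, and the fourth gave 3.10, 1.71, 0.71 and -0.50. The probe sets thus disagreed in TAC 1 day and MI 1 month as well as with Ang II. The Ang II value of 1.98 was that of the brightest probe set alone, and with the mean of all probe sets it was 0.32 and no member was counted in that pair.

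Cx3cr1, the fractalkine receptor, had a signal of 39.8 in TAC at 1 day, 124 at 1 week and 77.7 at 1 month, against 38.9, 121 and 71.3 in the TAC shams. Its MI signals were 57.4 at 1 week and 77.6 at 1 month, against 28.8 and 15.4 in the shams, and with Ang II 31.6 against 20.3. The log2 ratios of the 3 TAC pairs were 0.03, 0.03 and 0.12, and no pair met the pair rule. The controls ran from 15.4 to 121, a 7.88-fold range, and exchanging the TAC and MI shams of the same time turned the MI 1 week log2 ratio of 0.99 into -1.08 and the MI 1 month ratio of 2.34 into 0.12.

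Cxcr6, a receptor of lymphocytes, had a signal of 619 in TAC at 1 day, 43.6 at 1 week and 26.3 at 1 month, against 27.5, 17.9 and 22.0 in the TAC shams. With MI it was 43.6 at 1 week and 23.6 at 1 month, against 18.0 and 22.7 in the shams, and with Ang II 19.1 against 20.6. TAC 1 day stood alone at 22.5-fold of its sham, the controls being close to each other at 17.9 to 27.5. Its second probe set gave a log2 ratio of 5.38 in TAC 1 day and was at the floor in 6 of 12 arrays, among them both of TAC 1 week, where the ratio of the brightest was 1.29. In the RefSeq table Cxcr6 overlaps Fyco1, a gene of vesicle transport. The Fyco1 signal was 674 to 1150 in procedure and 1010 to 1400 in control arrays and lower in 6 of 6 pairs (mean log2 -0.56 ± 0.08, limma adjusted p = 0.00621). Cxcr6 was higher in 5 of 6 pairs and lower with Ang II (log2 -0.11). The part of the overlap in the Cxcr6 signal was not tested.

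The next question was whether constriction and infarction differed. In a fit with separate effects, Ccl8 was the member called for MI (log2 1.90 ± 0.24 over 2 pairs, limma adjusted p = 0.0197; all genes higher: 0.826%) and no member was called for TAC over 3 pairs (all genes higher: 1.08%; 5 of 9 members at an unadjusted p under 0.05, as were 21.6% of all genes in either direction). For TAC the log2 effects were 2.01 ± 0.72 for Cxcr6, 1.98 ± 0.61 for Ccl12, 1.71 ± 0.68 for Ccl2 and 1.68 ± 0.49 for Ccr2, with adjusted p of 0.111 to 0.202. For MI they were 2.43 ± 0.84 for Ccl2, 2.35 ± 0.60 for Ccr2 and 1.66 ± 0.35 for Cx3cr1, with adjusted p of 0.0726 to 0.195. The difference of TAC minus MI passed for 0 of 9 members and 0% of all genes tested by limma. At an unadjusted p under 0.05 there were 2 members, Ccl8 (-1.48 ± 0.31, adjusted p = 0.983) and Cx3cr1 (-1.60 ± 0.45, adjusted p = 0.983), and 4.53% of all genes; the sign for Cx3cr1 turned with the shams exchanged (1.97).

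These calls depended on the TAC 1 day pair. Without it the MI effects of Ccl2 (2.43 ± 0.28, adjusted p = 0.000929), Ccl6 (1.52 ± 0.13, 0.000206), Ccl8 (1.90 ± 0.17, 0.00024), Ccl9 (1.65 ± 0.23, 0.00257), Ccr2 (2.35 ± 0.29, 0.00126) and Cx3cr1 (1.66 ± 0.34, 0.0134) passed limma's test, 6 of 9 members, against 6.84% of all genes called higher. Ccl7 (1.16, adjusted p = 0.0994), Ccl12 (0.36, 0.28) and Cxcr6 (0.67, 0.468) did not pass. The MI log2 effects themselves were the same in both fits. The spread left without the TAC 1 day pair is that between the 2 later TAC pairs and between the 2 MI pairs. With the TAC and MI shams of the same time exchanged, Ccl2 had log2 ratios of 2.27 in MI 1 week and 0.27 in MI 1 month. Cx3cr1 had -1.08 and 0.12, whereas Ccl6, Ccl8, Ccl9 and Ccr2 stayed at 0.88 or more in both MI pairs. For TAC alone without the TAC 1 day pair Ccl12 was the member called, 1 of 9. Genes outside the 9 were also called in that fit, and 1 of 9 does not show that the members differ from all genes. Leaving out both the TAC 1 day and MI 1 week pairs was an alternative chosen after the data were seen. The TAC minus MI difference was then -1.49 for Ccl6 and -1.37 for Ccl8. Over the 9 members it ran from -2.26 (Cx3cr1) to 0.77 (Ccl12). This alternative sets TAC at 1 week and 1 month beside MI at 1 month alone. MI is 1 pair there, assumed to vary like the 2 TAC pairs left, so p-values of this fit are not given.

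Over time after TAC the median log2 ratio of the 9 genes was 3.43 at 1 day, 0.16 at 1 week and 0.26 at 1 month, and after MI it was 1.87 at 1 week and 1.39 at 1 month. The medians of all genes tested lay between -0.07 and 0.01 in the 6 pairs. With Ang II the median of the 9 was 0.46. The TAC 1 day array differs from the other TAC arrays in time, and its values carry 6 significant digits in the deposited table where the others carry 1 decimal.

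Markers of monocytes and macrophages, which carry several of these genes, were also higher. Of 18 measured monocyte and macrophage markers 10 passed in the mean of 6 pairs, all higher, with a median of 0.90, led by Ms4a7 (1.49 ± 0.27), the proteoglycan Vcan (1.40 ± 0.20) and the perforin-like Mpeg1 (1.37 ± 0.29), each with a limma adjusted p of 0.00647 to 0.021. Of all genes tested 5.16% were called higher in that mean. Which cells of the tissue gave these signals, that of Vcan among them, was not tested. Summed signals of the 19 markers on the array were 4830 to 17200 in procedure and 4260 to 7500 in control arrays, with a sum of 8930 in TAC 1 day against 4920 in its sham and 17200 in MI 1 week against 6150. Of the resident macrophage markers 1 of 8 passed, the mannose receptor Mrc1 (0.62 ± 0.16, adjusted p = 0.0382), and the list had a median of 0.29 and sums of 1230 to 2860 in procedure and 1200 to 1720 in control arrays. The count of 10 was 0 with no filter or no moderation, 1 (Vcan) with no replicate block, 2 with no intensity trend and 4 with the mean of all probe sets, in which Ms4a7 and Vcan did not pass. It was 2 without the MI 1 month pair, 3 without TAC 1 month, 4 without MI 1 week and 5 without TAC 1 week.

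Of 5 measured neutrophil markers 0 passed limma's test (all genes higher: 5.16%) and 1 had an unadjusted p under 0.05 (all genes higher: 13.4%). Their largest mean log2 ratios were 1.67 for S100a9 (adjusted p = 0.0622), 1.01 for Lcn2 and 0.96 for S100a8. The summed signal of the 11 on the array was 3900 in TAC 1 day against 727 in its sham and 1200 in MI 1 week against 237, and 172 to 312 in the other procedure arrays against 130 to 479. In TAC 1 day Lcn2 alone gave 2310, against 500 in the sham. Mpo (9.5 against 15.8), Ltf (6.52 against 8.22) and Elane (at the floor against 4.74), all too dim to be tested, were lower in that pair. The other neutrophil markers were higher in it. TAC 1 day and MI 1 week are also the pairs in which 7 of the 9 chemokines and receptors were counted. The part of neutrophils in those values was not tested. Of 3 measured T and NK cell markers 0 passed, also at an unadjusted p under 0.05 (Gzma 0.42, Ccl5 0.35, Prf1 -0.19). In TAC 1 day, where Cxcr6 was at 22.5-fold, the 14 on the array summed to 198 against 138 in the sham, and 8 were higher, 4 lower and 2 at the floor on both arrays. Of the 8 higher, the T cell receptor chains Cd3e and Cd3g had signals of 29.6 and 15.4, against the floor in the sham, and Ccl5 had 28.2 against 8.22. Cd3d was at the floor on both. The 4 lower were Cd4 (5.7 against 16.3), Gzmb (at the floor against 12.2), Il2rb (5.39 against 12.8) and Ncr1 (at the floor against 5.13). The part of T and NK cells in the Cxcr6 values was not tested. Dendritic cell (Itgax 0.91, Itgae -0.25, Clec10a 0.13), B cell (Cd22 0.13) and erythrocyte (Slc4a1 -0.34, Alas2 -0.15) markers had 0 called of 5, 1 and 2 measured (unadjusted 1, 0 and 0). In lists of 1 to 5 genes such counts are near the shares of all genes and do not show that a cell type was unchanged.

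Of 8 fibroblast markers 5 passed (all genes higher: 5.16%), led by Postn (2.27 ± 0.20), Col1a1 (1.82 ± 0.27) and Col1a2 (1.34 ± 0.18), with limma adjusted p of 0.00239 to 0.00733. Their median was 0.03 in TAC 1 day, where the chemokine median was 3.43, and 0.42 to 0.84 in the other pairs. Of 7 endothelial markers 0 passed, with 1 at an unadjusted p under 0.05 (Pecam1 0.26, Kdr -0.20, Vwf 0.20). Of 8 cardiomyocyte markers 2 fell, the calcium channel Ryr2 (-0.31 ± 0.06, adjusted p = 0.0143) and the calcium pump regulator Pln (-0.23 ± 0.06, adjusted p = 0.0412). Among all 11624 genes tested 1262 were called in either direction, 600 of them higher.

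**Figure D4:**
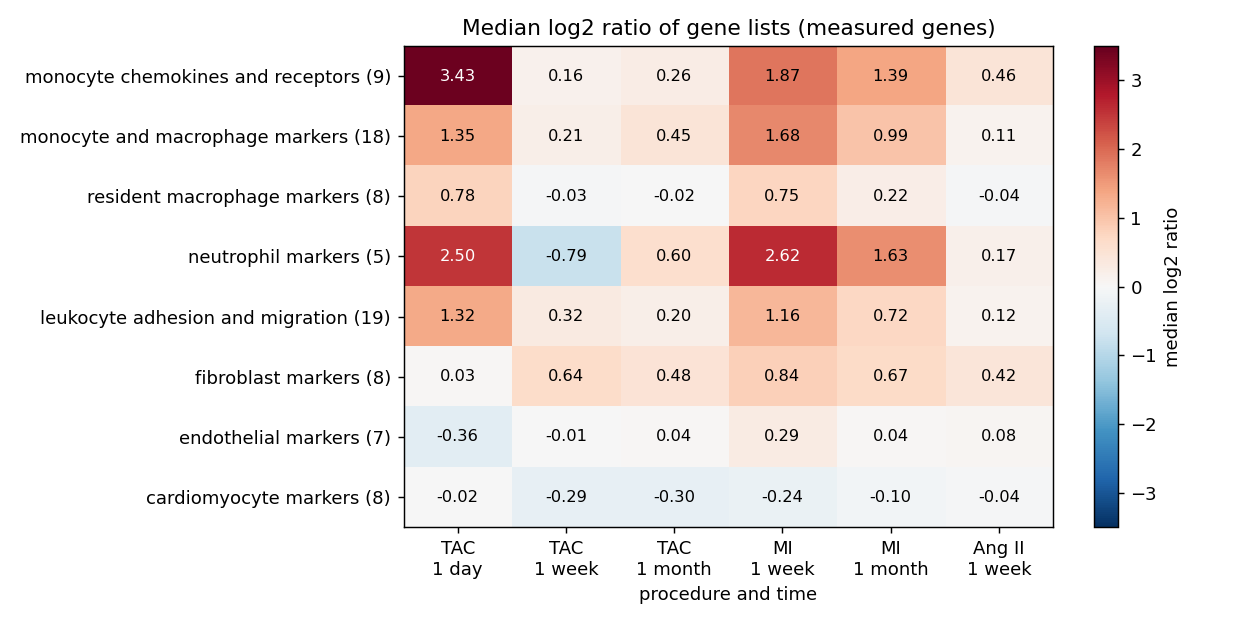
Median log2 ratio of procedure to control in each pair for the 9 genes and 7 marker lists, with the number of measured genes in brackets. In TAC 1 day the chemokine and receptor median (3.43) is above that of neutrophil (2.50), macrophage (1.35) and fibroblast markers (0.03). The neutrophil median is over the 5 bright enough to test of 11 on the array. Of the dim ones Mpo (-0.73), Ltf (-0.33) and Elane (-0.06) were lower in that pair. Camp (0.07), Cxcr2 (1.01) and Il1r2 (2.49) were higher.

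Other chemokines and their receptors were read in the same way. Of 50 further chemokines and receptors 46 were on the array and 21 bright enough to test, and 0 passed limma's test, with a median of 0.19. At an unadjusted p under 0.05 there were 4 in either direction, next to 13.4% of all genes for higher alone. Cxcl13, which attracts B cells, had 1.42 ± 0.44 (adjusted p = 0.0667), with signals of 195 in MI 1 week against 34.2 and 189 in MI 1 month against 47.3. Ccr1, the receptor of Ccl6 and Ccl9, had a mean log2 ratio of 0.68 (adjusted p = 0.367) but a signal of 228 in TAC 1 day against 24.0 and of 123 in MI 1 week against 35.6. Cxcl1, a neutrophil attractant, had 0.50 (adjusted p = 0.0834), Cxcl10 0.37, Cxcr4 0.36, Cmklr1 0.38, Ccl4 0.16 and Ccl28 0.01. Among the 21 tested genes the 2 largest ratios of each pair, in either direction, were taken. Besides the values above these were Ccl4 in TAC 1 day (log2 2.64 over a control at the floor, 0.80 with the floor at the 40th percentile, inside the control range), Ppbp (-1.42) and Ccl28 (1.12) in TAC 1 week, Cxcl10 (1.83) and Ackr1 (1.10) in TAC 1 month, Cxcl9 (1.25) in MI 1 month, and Cxcl13 (2.34, over a control at the floor) and Ackr1 (-0.88) with Ang II. Taking 2 of each pair leaves out some larger ratios, among them Cxcl13 (2.38) and Cxcl9 (2.06, over a control at the floor) in TAC 1 day and Cxcl9 (-1.79) in MI 1 week. Some genes too dim on average to be tested had larger ratios, of which 2 neutrophil attractants are given, chosen after their values were seen. Cxcl5 had signals of 57.9 in TAC 1 day against the floor in the sham and 50.3 in MI 1 week against 5.65, and Cxcl2 had 82.3 in MI 1 week against 11.2.

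Of the ligands that bind these receptors or support monocytes, Cx3cl1, the partner of Cx3cr1, rose by 0.62 ± 0.15 (limma adjusted p = 0.0355) and was higher in 6 of 6 pairs. Cxcl16, the partner of Cxcr6, had 0.52 ± 0.20 (adjusted p = 0.118), and the growth factors Csf1 and Il34 had 0.29 and 0.12 (adjusted p = 0.221 and 0.777). The call of Cx3cl1 held in 6 of 16 alternatives. Among 16 measured cytokine, NF-kB and related signalling genes 3 passed limma's test (all genes higher: 5.16%). They were the NF-kB cofactor Nfkbiz (0.97 ± 0.20, adjusted p = 0.021), the interleukin 1 receptor Il1r1 (0.68 ± 0.19, adjusted p = 0.0462) and Fos (1.77 ± 0.50, adjusted p = 0.0494). Il6, too dim on average to be tested, had signals of 103 in TAC 1 day and 161 in MI 1 week, against the floor in both shams. The other dim genes of this list had log2 ratios in those pairs of -1.06 and -0.44 (Il1a), -0.13 and 0.29 (Tnf) and 0 and -1.18 (Ifng). Of 19 genes of leukocyte adhesion and motility 7 rose, next to the same 5.16% of all genes, with a median of 0.69, led by Rac2 (1.29 ± 0.20, adjusted p = 0.00805) and the integrin chain Itgb2 (1.23 ± 0.27, adjusted p = 0.0252), while the selectin Selp had 1.14 ± 0.36 (adjusted p = 0.0697). Without the TAC 1 month, MI 1 week or MI 1 month pair 1 of the 19 passed, Rac2, and 0 of the 16.

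Genes whose 6 log2 ratios were closest to a member's were sought by the root mean square difference over all genes tested other than the 9 members. For Ccl6 these were Cpt1c (0.25) and Basp1 (0.29), for Ccl9 the cytokine signal inhibitor Socs3 (0.30) and the adhesion receptor Cd44 (0.30), and for Ccl8 Plvap (0.25), a protein of endothelial diaphragms, and Myof (0.31). Ccl2 was nearest to Cytip (0.54) and S100a4 (0.60), and Ccl7 to Gm13889 (0.70) and Ccr1 (0.70). Ccl12 and Cxcr6 shared the stress gene Gadd45g (0.34 and 0.48), with Inhba (0.51) next for Ccl12 and Myc (0.52) for Cxcr6, and differed from each other by 0.48. Ccr2 was nearest to the matrix protein Thbs1 (0.57) and Serpina3n (0.66), and Cx3cr1 to Arsk (0.30) and Eno2 (0.35). With 6 values per gene these are descriptions of the same arrays.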

How the data were processed

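Total RNA of 12 left ventricles or pools was measured on 1-colour Affymetrix arrays, with 5 µg as input per the labels. What the authors deposited is an intensity per probe set on a linear scale. The submitters' processing notes name GCOS, and how it computed or scaled the signals is not given in the sources used here. Pairs follow the sample titles. For the 1 day harvest the series text names MI and the array labels TAC, and for MI the text describes 30 min of occlusion with reperfusion and the labels a ligation. The labels were used.

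Signals were scaled to a common 2% trimmed mean, those under the 20th percentile of all values (4.54) were raised to it, and all were put on a log2 scale computed from the deposited intensity. Of 45101 probe sets 34958 had exactly 1 symbol, 932 several and 9211 none listed. Each of 18194 genes was read from its brightest probe set, and the 11624 with a mean above the 40th percentile (18.1) were tested with limma 3.58.1 in R 4.3.3, blocking on the pair, with a variance trend over intensity and Benjamini-Hochberg adjustment at 0.05. The mean of 6 pairs left 5 residual degrees of freedom and the fit by model 3. The residual of the mean of 6 pairs holds differences between models and times, and that of the fit by model differences between times. The fit of the mean of 6 pairs was tested on simulated data in which a changed gene changed equally in all 6 pairs. The fit by model was not tested in this way. The members and gene lists were chosen with earlier results of these data known. Named genes are the members, list genes past the test or, where none or over 3 passed, the 3 largest mean changes, the 4 partner ligands, the 2 nearest genes of each member and the 2 largest ratios per pair among other chemokines. Fyco1, Cd3d, Cd3e, Cd3g, Cd4, Gzmb, Il2rb, Ncr1, Mpo, Ltf, Elane, Camp, Cxcr2, Il1r2, Il6, Il1a, Tnf, Ifng, Cxcl2 and Cxcl5 were added after their values were seen. Alternatives were the scaling, floor, probe set rule, filter, variance model, pairing and leaving out each pair. Array number limits the precision.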

Additional observations from a re-analysis of the deposited data

How the results depend on the processing

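The count of members called in the mean of 6 pairs, 2 in the fit described, was 5 with signals as deposited, 1 with quantile normalization, with the mean of all probe sets, with no intensity trend or with no replicate block, and 0 with no filter or no moderation, and 1 to 4 when each pair was left out in turn. Of all genes 1262 were called as reported, 800 with signals as deposited, 694 with the mean of all probe sets, 473 with no replicate block, 241 with no intensity trend, 256 to 1485 with a pair left out, and 0 with no filter or no moderation. For MI alone the count of 1 was 0 with no filter, no intensity trend or no moderation, 2 with no replicate block and 0 to 6 with a pair left out. For TAC alone the count of 0 was 1 with no replicate block (Ccr2), 1 with the shams of the same time exchanged, and 0 to 1 with a pair left out. Leaving out both the TAC 1 day and MI 1 week pairs was an alternative chosen after the data were seen, as was the second brightest probe set. Without both pairs the count in the mean was 1 (Ccr2), next to 682 of all genes. In the fit by model without both, and where an MI pair is left out, MI is 1 pair, which is assumed to vary like the TAC pairs. Counts by model without both pairs are therefore not given. Under the pair rule TAC 1 week (1) gave 3 with signals as deposited, 3 with shams exchanged and 5 against the mean of 6 controls, TAC 1 month (0) gave 1, 2 and 1, and Ang II (1) gave 0 with the mean of all probe sets. The cause of these changes was not tested.

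Signs turned in 11 of 152 alternative values of the TAC minus MI differences, none past the test. With no replicate block Ccl2 was 0.49 and Cx3cr1 0.12, and with shams exchanged Ccl2 was 1.21, Ccl7 0.23, Ccr2 0.35 and Cx3cr1 1.97. With a pair left out Ccl7 ran from -1.91 to 0.44 and Ccl9 from -1.36 to 0.23. Among mean changes that did not pass, Ccl28 was -0.04 with quantile normalization, Ccl4 -0.14 with a higher floor and Prf1 0.05 with the mean of all probe sets. With a pair left out Ccl28 ran from -0.21 to 0.17, Ccl4 from -0.33 to 0.41, Alas2 from -0.26 to 0.04, Cd22 from -0.07 to 0.30, Clec10a from -0.08 to 0.32 and Il34 from -0.03 to 0.23. Without both pairs Alas2 was 0.03, Ccl4 -0.46, Ccr1 -0.25, Clec10a -0.16 and Itgae 0.06. No member's mean change turned sign. Across 18 alternatives the mean of Ccr2 ran from 1.28 to 2.21 (adjusted p 0.00215 to 0.105) and that of Ccl8 from 0.60 to 1.07 (0.0206 to 0.353), both by limma. With 1 array per group, and 18 of 108 member signals under the median signal, ratios between dim values are the least certain.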
